A study of Mus musculus with 37 samples.

Results

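Femoral bone marrow of wild-type C57BL/6N mice was profiled by RNA sequencing after an increasing number of social defeats, in which a mouse is exposed to attack by a dominant animal. The marrow libraries without a rest period numbered 15 of the 37 libraries of the series and of its 19 marrow libraries: 3 from undefeated controls (C1, C2 and C4), 4 after 1 defeat (D15, D16, D17 and D18), 3 after 4 defeats (D11, D12 and D14) and 5 after 10 defeats (D5, D6, D7, D9 and D10). Defeats were given daily, so the number of defeats and the days since the first one cannot be told apart. The marrow was flushed from the femur and not sorted, and the sources used here do not give the age of the mice, the hour of sampling or the interval since the last defeat. Values in the sentences below follow the order of libraries given here and are the authors' scaled abundance per gene, without a unit. They serve for comparisons of a gene between libraries and not between genes.

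Marrow makes red cells, granulocytes, monocytes, platelets and B cells side by side, and each lineage passes through dividing precursors before its mature cells leave for the blood. Granule proteins are made in sequence during granulocyte maturation: the primary granule enzymes at the promyelocyte stage, the secondary granule proteins later, and many surface receptors last. Repeated social defeat in mice is known from other work to go with increased myelopoiesis and with mobilisation of monocytes and neutrophils. In unsorted marrow, fewer cells of a type and less RNA per cell cannot be told apart.

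The question addressed was how marrow expression followed the number of defeats: along a straight line, with most of the change complete by 4 defeats, or with most of it only between 4 and 10. For each gene, log2(value + 1) was regressed on the number of defeats (0, 1, 4 and 10) with limma, and the slope is given in log2 units per defeat. A gene was called at an adjusted p under 0.05 over all genes tested. A value of 1 or more in at least 3 libraries was required, which 12270 genes met, and of these 5827 (47.5%) were called: 2463 (20.1%) rose and 3364 (27.4%) fell. The split between directions depended on scaling. After median-ratio rescaling 3053 rose and 2549 fell, after quantile normalization 2886 rose and 2522 fell, and when totals were made equal without the haemoglobin genes 736 rose and 7590 fell. The median gene differed by -0.12 log2 units between 10 defeats and controls as deposited, by -0.0018 after median-ratio rescaling and by -0.53 in the scaling without haemoglobin. A gene close to the median gene can therefore take either sign.

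Libraries differed within groups. Haemoglobin genes took 38.7% to 44.3% of the total in controls and 36.9% to 45.6% after 1 defeat. After 4 defeats they took 39.96% in D11 but 15.2% in D12 and 19.1% in D14, and after 10 defeats 11.1% to 26.8%, with D6 lowest. On the first principal component (50.4% of the variance) D17 scored 1.06 against 27.2 to 34.7 in the other 1-defeat libraries, and D6 scored -60.4 against -29.95 to -17.01 in the other 10-defeat libraries. Without D17, D12 and D6 together 6069 genes were called. Estimated depth was 6.52 to 44.5 M reads per library. Defining genes of marrow lineages were present in the control libraries: Hbb-bs (a beta globin), S100a8 (a neutrophil alarmin subunit), Cd79a (part of the B cell receptor) and Mpo (a primary granule peroxidase) stood at lowest control values of 121697, 18173, 227 and 553.

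To describe shape, each called gene was compared with 4 templates over 0, 1, 4 and 10 defeats: a straight line, a step already complete after 1 defeat, a step complete at 4 defeats (early plateau) and a step between 4 and 10 defeats (late). The template with the smallest residual was taken where the next best was at least 1.1 times worse, and the other genes were left unresolved. The straight line was assigned to 709 rising and 797 falling genes, the early plateau to 728 and 1126, the late step to 263 and 210, and the step after the first defeat to 6 and 51. The remaining 757 rising and 1180 falling genes were unresolved. Called genes had reached a median share of 0.63 of their 10-defeat change at 4 defeats, where a straight line gives 0.4.

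These shapes are best-fitting descriptions, not tests. A direct test asked whether the 4-defeat mean left the straight line between the controls and 10 defeats, and 87 genes (0.709%) passed it, 20 above the line (0.163%) and 67 below (0.546%). The same test at 1 defeat passed 0 genes in limma, with 368 at an unadjusted p under 0.05. These 368 are fewer than a share of 0.05 of the 12270 genes, which chance alone would give. Shape also rested on single 4-defeat libraries, above all on D11, which lay nearest the controls, and D12, which lay farthest. Without D11 the early plateau held 2691 genes and the straight line 920, and without D12 they held 1034 and 1705. The late step held 388 genes without D11, 930 without D12 and 341 without D14. Of the 1854 early plateau genes, 1734 kept that shape without D11, 1501 without D14 and 899 without D12.

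**Figure D1:**
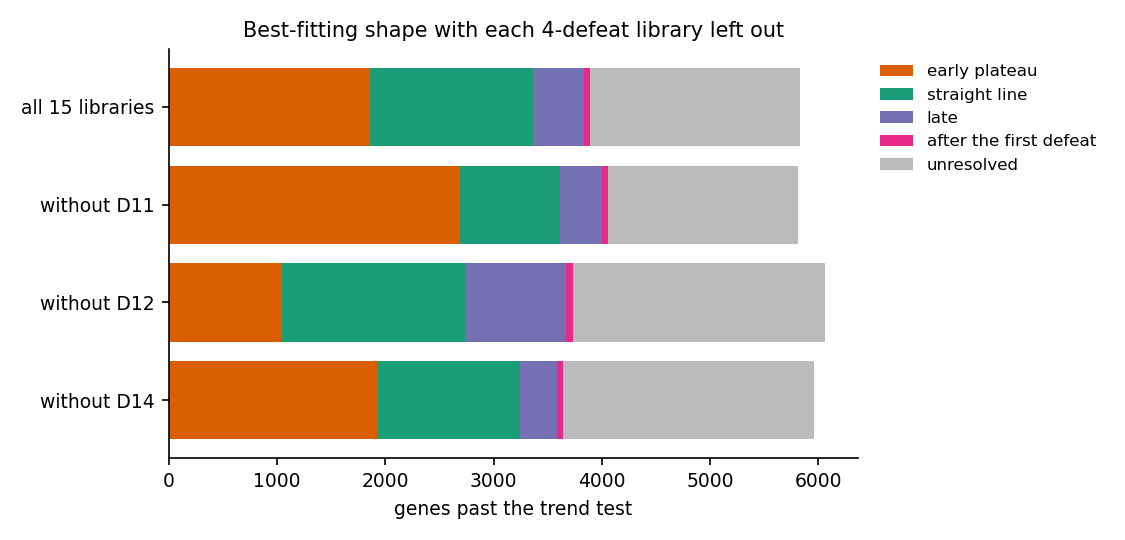
Number of called genes (x axis) assigned to each shape, with all 15 libraries and with each 4-defeat library left out (y axis). The early plateau spans 1854 genes with all libraries, 2691 without D11 and 1034 without D12.

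The same fit gave a test for each step. Between the controls and 1 defeat 1 gene was called (0.00815%), with 470 at an unadjusted p under 0.05. These 470 are fewer than a share of 0.05 of the 12270 genes, which chance alone would give. Between 1 and 4 defeats 908 genes were called (7.4%), 435 higher (3.55%) and 473 lower (3.85%). Between 4 and 10 defeats 190 were called (1.55%), 146 higher (1.19%) and 44 lower (0.359%). Of the genes with a called trend only 3 passed both later steps. Genes without a called trend could also pass both, as Cd93 did, which was lower at 4 defeats and higher again at 10. The counts rested on the 4-defeat libraries: without D12 the step from 1 to 4 held 9 genes and the step from 4 to 10 held 869, without D14 they held 14 and 9, and without D11 2063 and 113. Of the called genes 55.4% moved in the direction of their slope at every step, and of all genes tested, which include them, 32.2% did. Genes chosen for a slope have ordered group means more often, so no conclusion on a stepwise course is drawn from these shares.

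**Figure D2:**
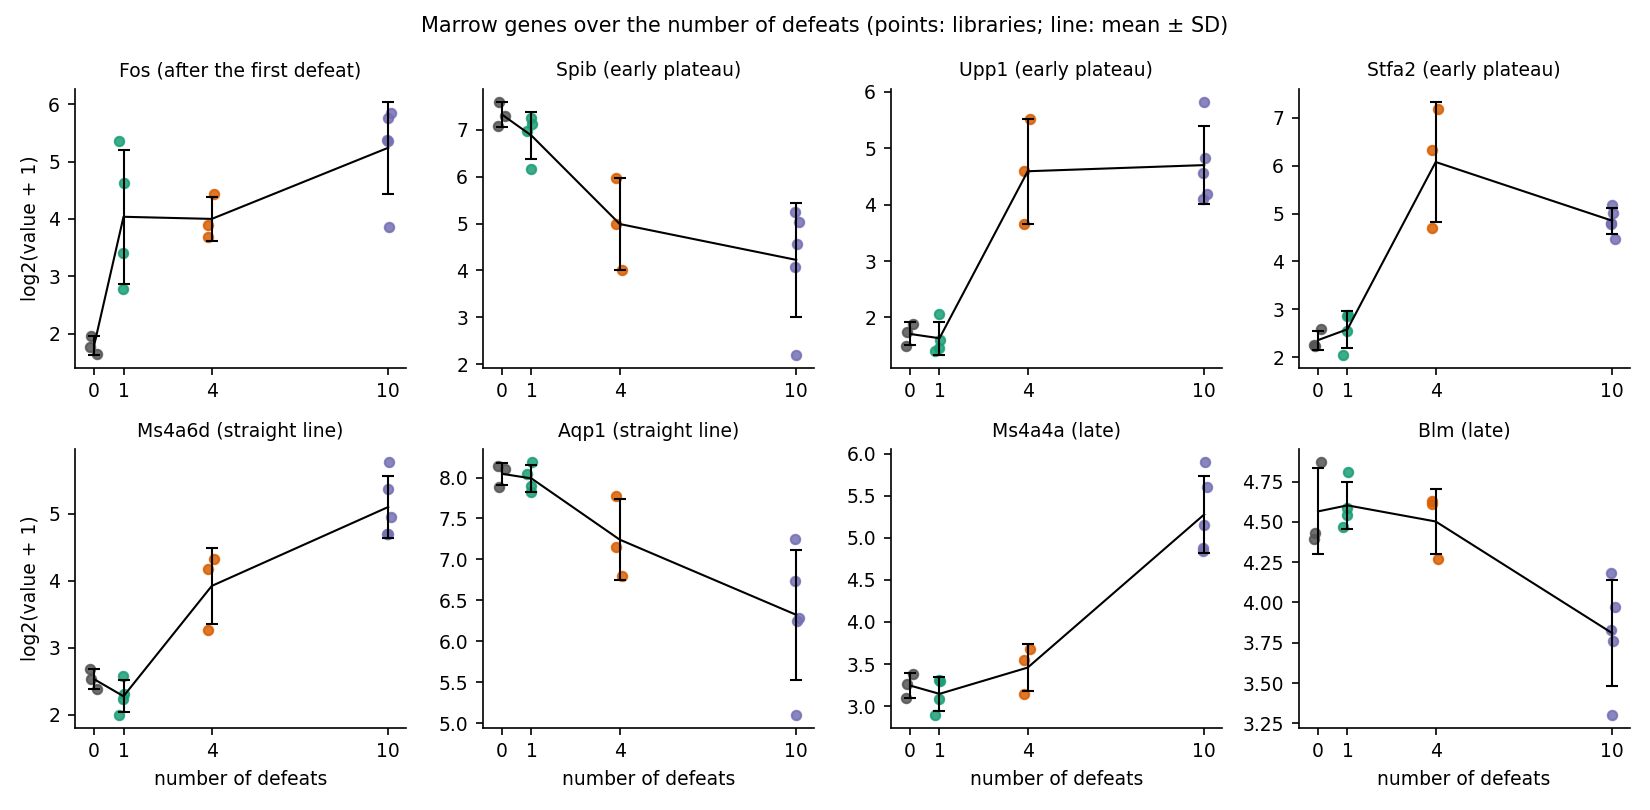
Level of 8 genes as log2(value + 1) (y axis) against the number of defeats (x axis), with a point per library and the mean ± SD of each group. Fos is higher from the first defeat, Spib and Upp1 change by 4 defeats, and Stfa2 is highest at 4. The means of Ms4a6d and Aqp1 change both between 1 and 4 and between 4 and 10, and Ms4a4a and Blm move between 4 and 10.

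The step after the first defeat was the rarest shape, and its steepest rising gene was Fos, an immediate early transcription factor that forms AP-1 with Jun proteins. Fos stood at 2.42, 2.92 and 2.13 in the controls, 23.7, 39.8, 9.59 and 5.83 after 1 defeat, 13.8, 20.6 and 11.8 after 4 and 40.6, 39.9, 53.2, 13.5 and 56.5 after 10. Every defeated library lay above every control. Over all genes tested, 49.5% had no overlap between the 10-defeat and control libraries, and the share was not computed for other separations of groups. Genes named here for the steepest slopes of a shape were required to have no such overlap. For them the separation of 10 defeats from controls is set by the choice. The 4-defeat values of Fos lay within the range of its 1-defeat values. The slope was 0.24 ± 0.060 (SE) log2 units per defeat (adjusted p = 0.0048), and the single step from control to 1 defeat was 2.24 ± 0.56 (SE, adjusted p = 0.93). Babam2, a member of a deubiquitinating complex, rose with 0.042 ± 0.013 (SE) log2 units per defeat (adjusted p = 0.017) and stood at 20.997, 20.9 and 22.5 in the controls, 26.1, 26.7, 35.6 and 31.5 after 1 defeat, 25.7, 31.4 and 29.6 after 4 and 28.2, 39.1, 36.03, 38.2 and 28.6 after 10. Each of its stressed libraries lay above the controls. Without D6 its adjusted p was 0.052, and its slope was -0.0023 in the scaling without haemoglobin.

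Lower genes of the same shape included Tia1, an RNA-binding protein of stress granules, at 19.1, 27.1 and 29.4 in the controls, 20.1, 16.7, 10.3 and 21.9 after 1 defeat, 13.9, 13.4 and 12.2 after 4 and 14.01, 12.2, 14.4, 10.1 and 12.7 after 10. The 4-defeat and 10-defeat libraries all lay below the lowest control, while D15 and D18 lay inside the control range. Rab3a, a GTPase of vesicle release, fell by 0.070 ± 0.022 (SE) log2 units per defeat (adjusted p = 0.018), and Derl3, a factor of protein disposal from the endoplasmic reticulum, by 0.071 ± 0.025 (SE) log2 units per defeat (adjusted p = 0.026). Gp1ba, the platelet receptor for von Willebrand factor, had a slope of -0.084 ± 0.031 (SE) log2 units per defeat (adjusted p = 0.036). The call of Derl3 was lost without C2, C4 or D6 (adjusted p = 0.059, 0.061 and 0.065), and that of Gp1ba in 8 of 15 leave-out fits, with adjusted p of 0.052 to 0.092. Each of these genes kept its shape in 10 to 14 of 15 fits with a library left out, but none passed the test of departure from the line at 1 defeat.

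Early plateau genes that fell included those of B cells. Of 21 tested genes of mature B cells 20 fell and 0 rose, and of 17 genes of B cell precursors 16 fell and 0 rose. Their median difference between 10 defeats and controls was -2.74 and -1.98 log2 units, against -0.12 over all genes tested. The early plateau fitted 10 of the 20 and 12 of the 16, and the median share of the change reached at 4 defeats was 0.77 and 0.89. The counts stayed between 15 and 21 in every scaling tried and with any library left out.

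Spib, an Ets transcription factor of B cells, stood at 134, 192 and 155 in the controls, 139, 124, 70.1 and 152 after 1 defeat, 61.5, 15.01 and 31.01 after 4 and 15.8, 3.603, 37.1, 22.7 and 31.9 after 10. All libraries after 4 and 10 defeats lay below all controls, D11 was the highest of the 4-defeat libraries, and D6 was the lowest of all. Its slope was -0.30 ± 0.054 (SE) log2 units per defeat (adjusted p = 7.1e-04). Vpreb3, a chaperone of the pre-B cell receptor, stood at 171, 233 and 168 in the controls, 157, 224, 150.3 and 180.5 after 1 defeat, 114, 17.6 and 25.96 after 4 and 20.5, 2.89, 51.2, 45.8 and 53.5 after 10. The 1-defeat libraries overlapped the controls, and the 4-defeat and 10-defeat libraries overlapped each other. Its slope was -0.29 ± 0.069 (SE) log2 units per defeat (adjusted p = 0.0034).

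Il7r, the receptor for the growth factor of B cell precursors, stood at 19.1, 22.96 and 24.5 in the controls, 22.6, 19.2, 16.4 and 17.7 after 1 defeat, 7.997, 1.97 and 3.15 after 4 and 3.199, 0.651, 5.21, 5.79 and 5.27 after 10. All libraries after 4 and 10 defeats lay below all others. It had completed 0.96 of its change at 4 defeats and was early plateau in 15 of 15 leave-out fits. The transcription factors Sox4 and Irf4, both used in B cell development, held the same shape in 15 of 15 fits, with slopes of -0.16 ± 0.027 (SE) and -0.19 ± 0.041 (SE). Cd79a (-0.30 ± 0.062 (SE)) was unresolved, and Cxcr5, which guides B cells to follicles, was early plateau with -0.17 ± 0.026 (SE). Without D12 the shape of Spib and Cxcr5 became a straight line, and that of Vpreb3 was unresolved.

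Of 10 tested genes of antigen presentation through MHC class II 8 fell and 0 rose, all 8 were early plateau, and their median share at 4 defeats was 0.93. Ciita, the master regulator of the class II genes, stood at 5.45, 6.52 and 5.34 in the controls, 5.21, 3.43, 1.77 and 5.96 after 1 defeat, 2.01, 0.416 and 1.36 after 4 and 1.15, 0.228, 0.944, 1.699 and 2.34 after 10. D17 lay within the range of the 4-defeat libraries, and the other 1-defeat libraries lay above it. Its slope was -0.14 ± 0.035 (SE) log2 units per defeat (adjusted p = 0.0034), and H2-Oa, a subunit of a peptide-loading modulator, had -0.16 ± 0.030 (SE) log2 units per defeat (adjusted p = 6.7e-04). B cells also express these genes, so this list and the B cell lists overlap in their source. Of 14 dendritic cell genes 10 fell, 6 of them as an early plateau.

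Of 19 tested T cell genes 8 fell and 0 rose, 7 as an early plateau, and the median difference from controls was -1.07 log2 units at 4 defeats and -0.95 at 10. The list level overlapped between these groups, at -0.54, -1.47 and -1.14 in D11, D12 and D14 and between -1.43 and -0.34 after 10 defeats. When the 10-defeat group was left out 18 of 19 fell, and with single libraries left out the count was 6 to 16, highest without D12 (16) and D10 (15). Tcf7, a transcription factor of T cells, stood at 6.35, 7.32 and 9.15 in the controls, 6.703, 4.18, 3.51 and 7.03 after 1 defeat, 3.099, 1.18 and 1.91 after 4 and 2.42, 1.07, 1.72, 2.99 and 3.08 after 10. All 4-defeat and 10-defeat libraries lay below the controls and the lowest was D6. Cd8b1, a coreceptor chain of cytotoxic T cells, had a slope of -0.12 ± 0.022 (SE) log2 units per defeat (adjusted p = 5.2e-04), and Ccr7, a lymph node homing receptor, -0.18 ± 0.033 (SE) log2 units per defeat (adjusted p = 6.3e-04). S1pr1, the lipid receptor by which lymphocytes leave tissues, fell in the same way, with -0.20 ± 0.029 (SE) log2 units per defeat (adjusted p = 1.4e-04).

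Scd1, which makes monounsaturated fatty acids, was among the largest early falls and belongs to none of these lists. It stood at 28.3, 34.8 and 28.9 in the controls, 30.1, 19.9, 17.02 and 28.8 after 1 defeat, 10.5, 2.398 and 8.15 after 4 and 3.56, 0.644, 4.39, 4.89 and 6.498 after 10. No library after 4 or 10 defeats reached the lowest control, and the slope was -0.27 ± 0.043 (SE) log2 units per defeat (adjusted p = 3.0e-04).

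**Figure D3:**
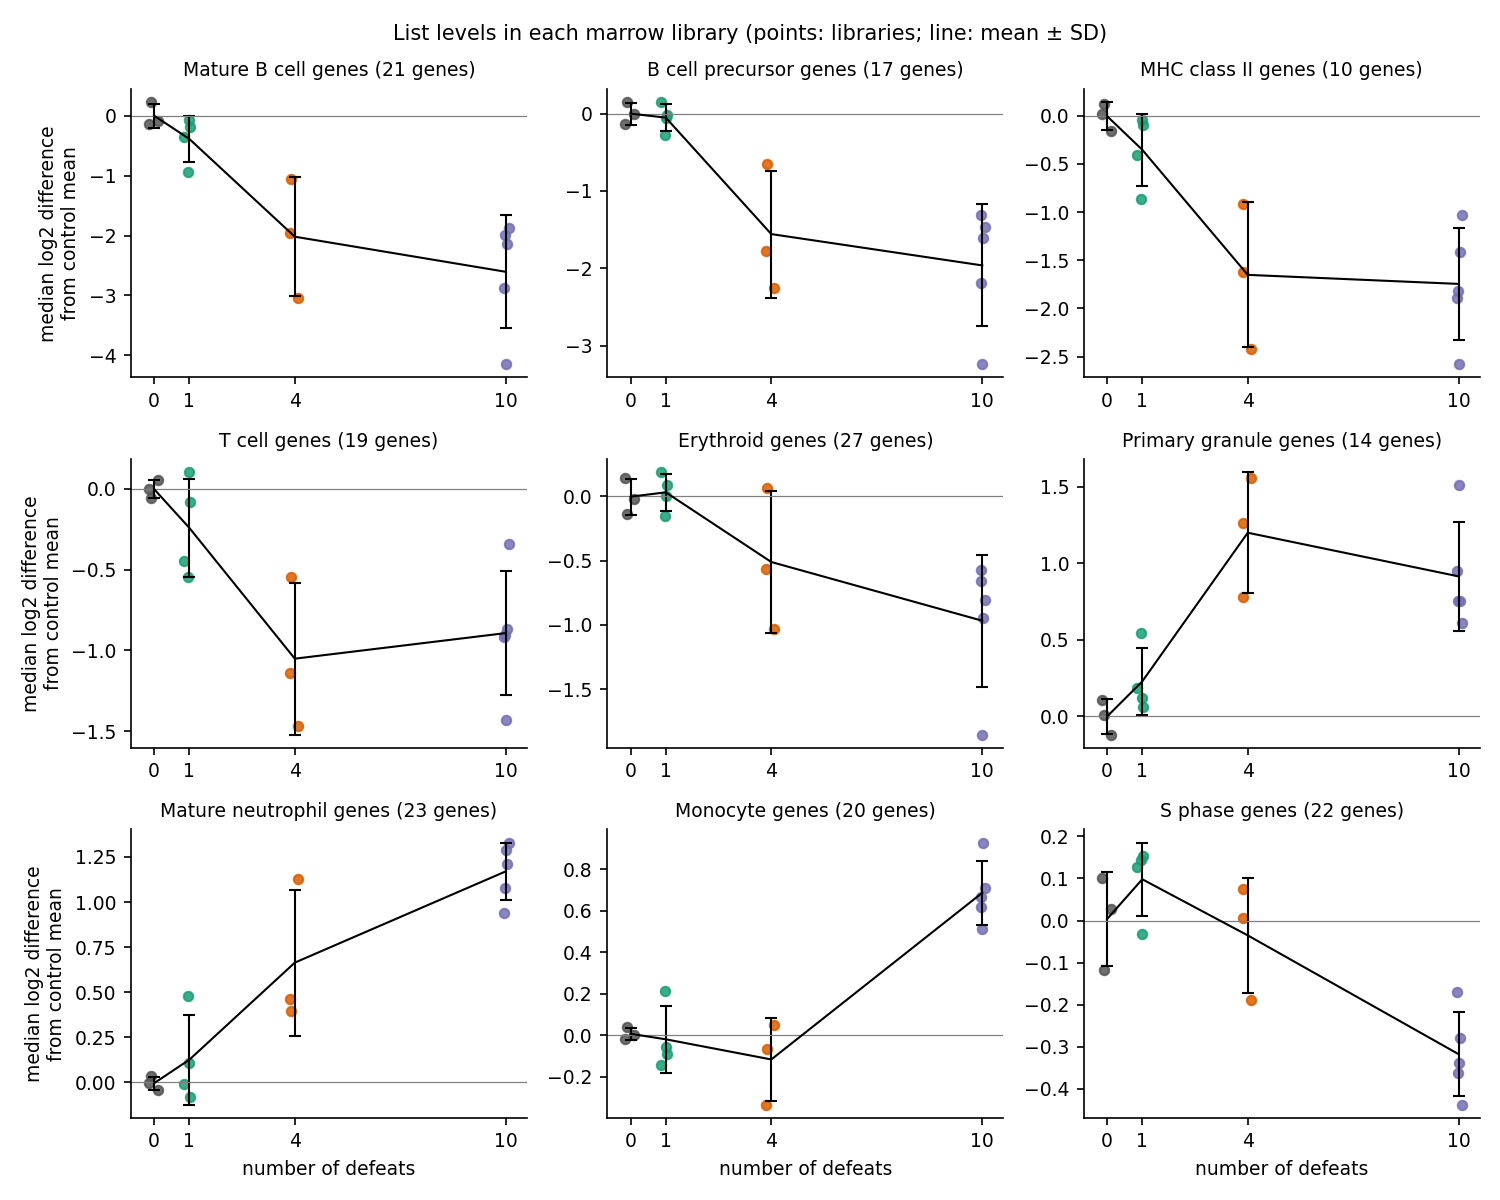
Median log2 difference of the tested genes of 9 lists from their control mean (y axis) in each library, against the number of defeats (x axis), with the mean ± SD of each group. B cell, MHC class II and T cell lists are lower by 4 defeats, primary granule genes have their highest group mean at 4, and monocyte genes are near 0 up to 4 defeats and 0.51 to 0.93 after 10.

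The early plateau genes with the steepest rising slopes were Wfdc17, Upp1, Prok2 and Ifitm1. Wfdc17, a secreted protein of activated myeloid cells, stood at 32.7, 31.6 and 30.8 in the controls, 25.6, 21.2, 52.9 and 33.4 after 1 defeat, 144, 316 and 163 after 4 and 243, 454, 278, 385 and 259.8 after 10. Every library after 4 and 10 defeats exceeded every control and every 1-defeat library. The slope was 0.34 ± 0.042 (SE) log2 units per defeat (adjusted p = 8.0e-05), and the step from 1 to 4 defeats was 2.60 ± 0.31 (SE, adjusted p = 0.0058) log2 units. Upp1, which splits uridine, stood at 1.81, 2.36 and 2.71 in the controls, 2.04, 1.65, 3.16 and 1.76 after 1 defeat, 11.7, 44.9 and 23.2 after 4 and 16.2, 55.8, 22.7, 27.4 and 17.2 after 10. All libraries after 4 and 10 defeats exceeded the rest, and D6 and D12 were highest. Upp1 had reached 0.96 of its change at 4 defeats. Prok2, a secreted prokineticin of neutrophils, had a slope of 0.30 ± 0.072 (SE) log2 units per defeat (adjusted p = 0.0035), and Ifitm1, an interferon-inducible membrane protein, 0.29 ± 0.051 (SE) log2 units per defeat (adjusted p = 6.1e-04). All 4 kept the shape in 15 of 15 leave-out fits.

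Of 14 tested primary granule genes 11 rose and 0 fell, 9 as an early plateau, and their median share at 4 defeats was 1.13. The list level after 4 defeats was 0.78, 1.56 and 1.26, which overlapped the 0.61 to 1.51 after 10. Prtn3, the serine protease proteinase 3, stood at 349.7, 316 and 282 in the controls, 311, 414, 471 and 341 after 1 defeat, 891, 1604 and 1377 after 4 and 965, 1915, 879, 1014 and 843 after 10. D6 exceeded all 4-defeat libraries, D5 and D9 lay in the lower part of their range, and D7 and D10 lay below it. Its departure from the line at 4 defeats was 1.29 ± 0.24 (SE, adjusted p = 0.029) log2 units, and its step from 4 to 10 was -0.23 ± 0.25 (SE, adjusted p = 0.65). Elane, neutrophil elastase, rose with 0.096 ± 0.027 (SE) log2 units per defeat (adjusted p = 0.0086). Mpo stood at 651, 606 and 553 in the controls, 698, 706, 891 and 657 after 1 defeat, 1020.1, 1752 and 1603 after 4 and 1207, 1541, 806, 914 and 779.8 after 10, and its trend was not called (0.060 ± 0.027 (SE) log2 units per defeat (adjusted p = 0.08)), while the step from 1 to 4 defeats was 0.95 ± 0.23 (SE, adjusted p = 0.028). In the scaling without haemoglobin 4 of the 14 rose.

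All 15 tested genes of secondary and tertiary granules rose, and 21 of 23 genes of mature neutrophils, with median shares at 4 defeats of 0.66 and 0.56. The shapes of the 21 were mixed, with 8 straight lines, 7 early plateaus and 3 late steps. Ly6g, the surface marker of mouse neutrophils, stood at 144, 158 and 137 in the controls, 149.5, 155, 259 and 179.6 after 1 defeat, 193, 286 and 171 after 4 and 325, 381, 403, 307 and 407 after 10. The lowest 10-defeat library exceeded all libraries of the other groups, and D11 and D14 lay within the 1-defeat range. Its slope was 0.12 ± 0.016 (SE) log2 units per defeat (adjusted p = 7.2e-05). Camp, the cathelicidin peptide of secondary granules, had 0.13 ± 0.018 (SE) log2 units per defeat (adjusted p = 1.0e-04) and was a straight line in 15 of 15 leave-out fits. Cxcr2, the receptor that draws neutrophils into blood, had 0.13 ± 0.016 (SE) log2 units per defeat (adjusted p = 7.2e-05), and Ltf, lactoferrin, 0.14 ± 0.023 (SE) log2 units per defeat (adjusted p = 2.5e-04). S100a8 was early plateau with 0.13 ± 0.028 (SE) log2 units per defeat (adjusted p = 0.0017), and its partner S100a9 was unresolved with 0.15 ± 0.024 (SE) log2 units per defeat (adjusted p = 2.3e-04).

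**Figure D4:**
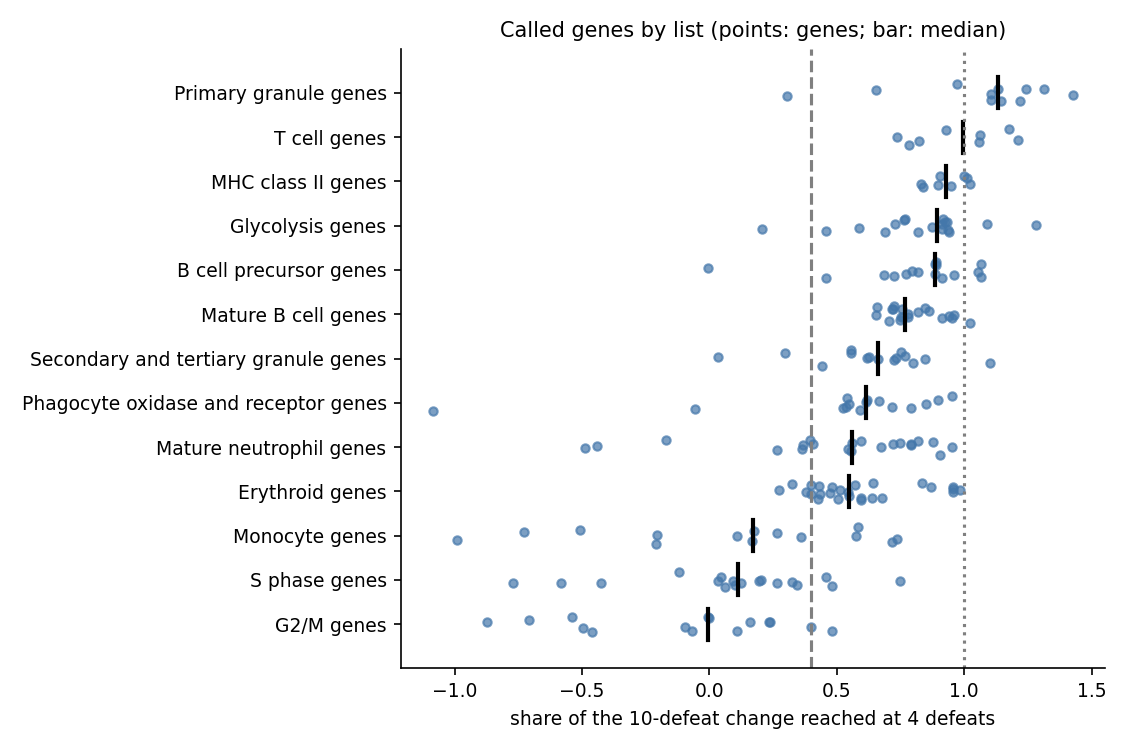
Share of the difference between 10 defeats and controls that was reached at 4 defeats (x axis) for the called genes of 13 lists (y axis), with a point per gene and a bar at the median. The dashed line at 0.4 is a straight line over defeats, and medians run from 1.13 for primary granule genes to -0.0072 for G2/M genes.

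Glycolysis genes rose early. Of 19 tested genes 17 rose and 1 fell, the fall being Hk1, and 14 of the 18 called genes were early plateau. Their median difference at 10 defeats was 0.91 log2 units, of which a median share of 0.89 was present at 4. Slc16a3, a lactate exporter, stood at 34.8, 31.98 and 29.6 in the controls, 29.6, 32.8, 35.1 and 37.9 after 1 defeat, 47.1, 80.1 and 61.4 after 4 and 71.3, 101, 72.5, 59.6 and 76.8 after 10. All libraries after 4 and 10 defeats exceeded the rest. Hk2, an inducible hexokinase, was a straight line (0.14 ± 0.020 (SE) log2 units per defeat (adjusted p = 1.3e-04)). Of 16 genes of the phagocyte oxidase and its receptors 15 rose, among them Tlr2, a receptor for bacterial lipoproteins, with 0.13 ± 0.014 (SE) log2 units per defeat (adjusted p = 3.3e-05).

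The stefin A genes, which encode inhibitors of cysteine proteases, are neighbours, and 5 of them had their highest group mean at 4 defeats. They lie in GRCm38 at chr16:36156811-36455392 by GENCODE M21, and 7 genes of the cluster were tested, of which 5 rose and 0 fell. The cluster was chosen after its values were seen. Of the 6 tested genes of the stefin A list 3 rose and 0 fell. Stfa2 stood at 3.77, 3.69 and 4.98 in the controls, 6.33, 3.13, 6.28 and 4.81 after 1 defeat, 25.1, 145 and 79.8 after 4 and 26.9, 35.3, 26.7, 31.5 and 20.99 after 10. D12 and D14 were the highest libraries, D11 lay within the 10-defeat range, and no control or 1-defeat library reached any of these. Its departure from the straight line at 4 defeats was 2.73 ± 0.38 (SE, adjusted p = 0.019) log2 units. Cstdc5 departed by 2.74 ± 0.41 (SE, adjusted p = 0.019) and Stfa3 by 2.16 ± 0.36 (SE, adjusted p = 0.025). The trend itself was called for Stfa2 (0.24 ± 0.076 (SE)) and Cstdc5 (0.20 ± 0.078 (SE)) and not for Stfa3 (adjusted p = 0.081), and the call of Cstdc5 was lost in 10 of 15 leave-out fits, with adjusted p of 0.053 to 0.084. At the other end of the cluster Stfa2l1 and Cstdc4 reached shares of 0.82 and 0.73 at 4 defeats, with group means of 196 and 178 at 4 defeats and 225 and 232 at 10. These genes are close copies, and how the authors' quantification divided reads among them is not stated in the sources used here.

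A further 5 genes were among those with the smallest p for departure at 4 defeats. Sdf2l1, a chaperone cofactor of the endoplasmic reticulum, stood at 31.2, 28.2 and 25.7 in the controls, 24.2, 30.6, 30.3 and 25.6 after 1 defeat, 53.3, 69.8 and 81.8 after 4 and 45.1, 63.2, 36.2, 52.3 and 50.4 after 10, with the 4-defeat libraries highest on average and overlapping the upper 10-defeat values. Its departure was 0.92 ± 0.16 (SE, adjusted p = 0.025). Cd93, a receptor of early B cells, stem cells and endothelium, stood at 15.2, 19.9 and 19.1 in the controls, 17.1, 16.1, 16.1 and 15.8 after 1 defeat, 8.31, 7.57 and 9.37 after 4 and 12.8, 10.9, 12.95, 16.8 and 11.9 after 10. The 4-defeat libraries were the 3 lowest of all 15. Its departure was -0.84 ± 0.12 (SE, adjusted p = 0.019), the step from 1 to 4 defeats was -0.88 ± 0.13 (SE, adjusted p = 0.01), and the step back from 4 to 10 was 0.57 ± 0.13 (SE, adjusted p = 0.036). Tlr9, a receptor for bacterial DNA, departed by -1.01 ± 0.16 (SE, adjusted p = 0.019), Rhoq, a small GTPase, by -0.73 ± 0.11 (SE, adjusted p = 0.019), and Ptprj, a receptor phosphatase, by -0.53 ± 0.081 (SE, adjusted p = 0.019). The trend was called for Tlr9 and for Sdf2l1 (adjusted p = 0.060 without D6) and not for Cd93, Rhoq or Ptprj (adjusted p = 0.18, 0.26 and 0.81). Without C2, C4 or D12 the departure test at 4 defeats passed 0 genes in limma, without D14 1, without D6 826 and without D11 887.

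Straight-line genes that fell included 11 of the red cell lineage, of 797 in all. Of 27 tested erythroid genes 26 fell and 0 rose, with a median of -1.02 log2 units between 10 defeats and controls, and 6 were early plateaus. Aqp1, the water channel of the red cell membrane, stood at 282, 236 and 274 in the controls, 291, 264, 225 and 238 after 1 defeat, 218, 110.1 and 141 after 4 and 151, 33.2, 105, 75.1 and 77.3 after 10. The 10-defeat libraries all lay below the controls, as the choice of this gene required. D11 lay just below the 1-defeat range, and D12 and D14 lay within the 10-defeat range. Its slope was -0.18 ± 0.028 (SE) log2 units per defeat (adjusted p = 2.5e-04). Car1, a carbonic anhydrase, had -0.17 ± 0.027 (SE) log2 units per defeat (adjusted p = 2.5e-04), and Gata1, the main erythroid transcription factor, -0.11 ± 0.024 (SE) log2 units per defeat (adjusted p = 0.0018).

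Abcg4, a sterol transporter, stood at 25.1, 21.1 and 28.98 in the controls, 27.4, 20.1, 10.6 and 18.8 after 1 defeat, 15.3, 7.06 and 12.5 after 4 and 13.3, 2.14, 6.36, 3.75 and 5.22 after 10 and kept the straight line in 15 of 15 leave-out fits. D17 lay below D11 and D14, so a 1-defeat library was lower than most 4-defeat libraries. Srpk3, a splicing kinase, stood at 12.2, 21.2 and 12.7 in the controls, 13.95, 15.3, 1.97 and 14.9 after 1 defeat, 6.92, 1.51 and 3.35 after 4 and 1.22, 0.0392, 2.91, 1.14 and 2.62 after 10, with D17 at 1.97 against 13.95 to 15.3 in the other 1-defeat libraries. Srpk3 kept the straight line in 10 of 15 leave-out fits. Ache, acetylcholinesterase, had a slope of -0.18 ± 0.040 (SE) log2 units per defeat (adjusted p = 0.0021). Hbb-bs was early plateau (-0.11 ± 0.031 (SE) log2 units per defeat (adjusted p = 0.011)), and its 4-defeat libraries were split, with D11, D12 and D14 at 148478, 49602 and 57039. When the 10-defeat group was left out 9 of the 27 erythroid genes fell.

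Vcan, a proteoglycan of monocytes, had the steepest slope of the straight-line genes that rose, with 0.30 ± 0.031 (SE) log2 units per defeat (adjusted p = 1.9e-05). Ms4a6d, a tetraspanning protein of monocytes and macrophages, was next. It stood at 5.39, 4.79 and 4.19 in the controls, 3.94, 2.97, 4.94 and 3.69 after 1 defeat, 8.62, 19.01 and 17.1 after 4 and 24.95, 40.6, 25.1, 53.8 and 30.03 after 10. All 4-defeat libraries exceeded the earlier groups, and all 10-defeat libraries exceeded the 4-defeat ones. The slope was 0.28 ± 0.027 (SE) log2 units per defeat (adjusted p = 1.5e-05), and both later steps were called: 1.65 ± 0.27 (SE, adjusted p = 0.011) from 1 to 4 and 1.18 ± 0.26 (SE, adjusted p = 0.039) from 4 to 10. Olfm1, a secreted glycoprotein, was called in the same steps and stood at 4.22, 5.41 and 3.64 in the controls, 3.71, 4.61, 6.97 and 5.31 after 1 defeat, 6.53, 11.1 and 10.8 after 4 and 16.5, 19.8, 19.4, 27.4 and 22.98 after 10. Its groups after 4 and after 10 defeats did not overlap, and D11 lay within the 1-defeat range. Ctsc, which activates the granule proteases, had 0.18 ± 0.021 (SE) log2 units per defeat (adjusted p = 4.5e-05). Lgals3, a galactose-binding lectin of myeloid cells, was a straight line in 15 of 15 leave-out fits, with 0.14 ± 0.014 (SE) log2 units per defeat (adjusted p = 1.9e-05).

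Myb, a transcription factor of dividing progenitors, fell along a straight line in 15 of 15 leave-out fits. It stood at 56.4, 76.9 and 69.3 in the controls, 64.04, 63.6, 52.4 and 66.2 after 1 defeat, 44.2, 42.3 and 40.3 after 4 and 34.5, 32.1, 32.4, 29.1 and 30.9 after 10. The groups after 4 and 10 defeats did not overlap each other or the controls. The slope was -0.10 ± 0.010 (SE) log2 units per defeat (adjusted p = 1.5e-05). Of 15 genes of stem and progenitor cells 7 fell and 3 rose, with 4 lower without D9 and after quantile normalization.

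Of the 263 late genes that rose, 6 were in the monocyte list. Of 20 tested monocyte genes 14 rose and 0 fell, and their median difference from controls was -0.0033 log2 units after 1 defeat, -0.14 after 4 and 0.70 after 10. The count was 14 without any single library and 10 in the scaling without haemoglobin, where 3 fell. Without the 10-defeat group 4 rose and 5 fell. The list level did not overlap between groups at the end of the course: it was -0.067, 0.051 and -0.34 in D11, D12 and D14 and 0.66, 0.51, 0.62, 0.93 and 0.71 in the 10-defeat libraries. Ccr2, the receptor by which monocytes leave the marrow, stood at 48.3, 56.7 and 55.2 in the controls, 49.3, 42.2, 77.3 and 54.8 after 1 defeat, 53.3, 76.01 and 62.6 after 4 and 111, 120.1, 145, 188 and 155 after 10. The lowest 10-defeat library exceeded the highest 1-defeat and 4-defeat libraries, D17 and D12. It was unresolved in shape, its slope was 0.15 ± 0.017 (SE) log2 units per defeat (adjusted p = 4.0e-05), and the step from 4 to 10 was 1.15 ± 0.19 (SE, adjusted p = 0.013).

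Sirpb1c, a signal-regulatory receptor of myeloid cells, was late in 15 of 15 leave-out fits. It stood at 5.42, 6.16 and 5.65 in the controls, 4.52, 5.32, 8.12 and 7.15 after 1 defeat, 6.02, 6.899 and 5.11 after 4 and 13.5, 13.3, 17.2, 24.4 and 23.3 after 10, with no overlap between 10 defeats and any earlier group. The step from 4 to 10 defeats was 1.43 ± 0.20 (SE, adjusted p = 0.0062). Zbp1, a sensor of left-handed nucleic acids induced by interferon, had 0.13 ± 0.020 (SE) log2 units per defeat (adjusted p = 2.0e-04) and was late in 8 of 15 leave-out fits. Of 19 interferon-stimulated genes 4 rose and 0 fell, close to the 20.1% that rose over all genes.

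The Ms4a genes, a family of tetraspanning membrane proteins, lie side by side in GRCm38 at chr19:11067471-11640851, and the cluster was chosen for description after its values were seen. Of 11 tested genes 7 rose and 2 fell. Ms4a4a (chr19:11375523-11392790) stood at 7.52, 8.61 and 9.396 in the controls, 8.81, 6.42, 7.48 and 8.94 after 1 defeat, 7.86, 11.8 and 10.7 after 4 and 27.7, 34.6, 28.5, 58.8 and 47.7 after 10. No 10-defeat library overlapped any other library, and the 4-defeat libraries were close to the controls. Its slope was 0.22 ± 0.022 (SE) log2 units per defeat (adjusted p = 1.6e-05), with a step from 4 to 10 of 1.82 ± 0.22 (SE, adjusted p = 0.0023). Next to it Ms4a4c rose with 0.13 ± 0.017 (SE) log2 units per defeat (adjusted p = 8.5e-05), Ms4a6c with 0.12 ± 0.014 (SE) log2 units per defeat (adjusted p = 4.0e-05) and Ms4a6b with 0.11 ± 0.018 (SE) log2 units per defeat (adjusted p = 3.1e-04). These 3 genes had a share of 0.11, 0.17 and -0.28 at 4 defeats, while Ms4a6d had 0.54. Ms4a4b, which lies between Ms4a4c and Ms4a6c, was not called (-0.043 ± 0.031 (SE) log2 units per defeat (adjusted p = 0.26)). Its group means were 29.2, 22.55, 11.55 and 19.3 after 0, 1, 4 and 10 defeats.

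In the same cluster Ms4a1, the B cell antigen CD20, fell with -0.29 ± 0.051 (SE) log2 units per defeat (adjusted p = 5.7e-04), and its group means were 38.97, 32.5, 9.76 and 5.64 after 0, 1, 4 and 10 defeats. Ms4a2, a chain of the IgE receptor of mast cells and basophils, fell with -0.059 ± 0.020 (SE) log2 units per defeat (adjusted p = 0.026). Ms4a3, a gene of granulocyte and monocyte progenitors, rose with 0.10 ± 0.036 (SE) log2 units per defeat (adjusted p = 0.032), and its means of 80.8, 99.0, 264 and 191 were highest at 4 defeats. The call of Ms4a2 was lost in 4 of 15 leave-out fits (adjusted p = 0.052 to 0.074) and that of Ms4a3 in 7 (0.053 to 0.10). The Ms4a4 and Ms4a6 genes are similar in sequence, so reads may have been divided among them.

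Late genes that fell included those of the cell cycle. Of 22 tested S phase genes 18 fell and 0 rose, 7 with the late step, and of 22 G2/M genes 15 fell and 0 rose, 10 with the late step. The median differences from controls were -0.025 and 0.11 log2 units at 4 defeats and -0.31 and -0.28 at 10. Without the 10-defeat group 1 S phase gene and 2 G2/M genes rose and 0 fell. The G2/M count was 10 to 19 with single libraries left out and 7 after median-ratio rescaling. Mcm5, part of the replicative helicase, stood at 100.3, 84.97 and 95.2 in the controls, 105, 105, 97.4 and 92.6 after 1 defeat, 101, 94.2 and 112 after 4 and 90.8, 76.4, 73.8, 72.4 and 65.6 after 10. The 4-defeat libraries lay within or just above the range of the earlier groups, and D5 was the only 10-defeat library inside the control range. Its slope was -0.038 ± 0.010 (SE) log2 units per defeat (adjusted p = 0.006), and the late step held in 15 of 15 leave-out fits.

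Blm, a DNA helicase of recombination, was a late falling gene. It stood at 19.99, 20.6 and 28.3 in the controls, 27.1, 21.1, 22.3 and 22.97 after 1 defeat, 23.5, 18.3 and 23.7 after 4 and 17.2, 8.85, 13.2, 12.6 and 14.7 after 10, with all 10-defeat libraries below all others. The slope was -0.083 ± 0.015 (SE) log2 units per defeat (adjusted p = 5.1e-04). Oip5, needed at centromeres, had -0.076 ± 0.014 (SE) log2 units per defeat (adjusted p = 5.0e-04), Gins2, another helicase subunit, -0.052 ± 0.0085 (SE) log2 units per defeat (adjusted p = 3.1e-04), and Kif11, the motor that separates spindle poles, -0.054 ± 0.0091 (SE) log2 units per defeat (adjusted p = 3.5e-04). Dis3, an exosome ribonuclease, had -0.069 ± 0.011 (SE) log2 units per defeat (adjusted p = 2.8e-04), and Nqo1, a quinone reductase, -0.068 ± 0.010 (SE) log2 units per defeat (adjusted p = 1.9e-04). The late step held in 13 of 15 leave-out fits for Oip5, 12 for Gins2, Dis3 and Nqo1, 11 for Blm and 8 for Kif11. Kif11 was unresolved without D12 or D14. Mki67, the proliferation antigen, fell along a straight line (-0.052 ± 0.011 (SE) log2 units per defeat (adjusted p = 0.0019)).

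Promoters of late falling genes are shown because motifs known from cell-cycle promoters were more frequent in them than in all windows, which was not tested. Windows of 250 bases before to 50 bases after the gene start came from RefSeq (GRCm38.p6), and 9226 of the 11482 protein-coding genes tested (80.4%) had one. 12 motifs were searched on both strands, and 3 were chosen for display after their shares were seen: the CCAAT box (CCAAT), an E2F site (TTCCCGC) and the cell-cycle homology region, or CHR (TTTGAA). No match shown in capitals overlaps another. Among 157 windows of late falling genes 54.1% held CCAAT, 18.5% TTCCCGC and 24.2% TTTGAA, against 39.7%, 8.76% and 12.5% of all windows. The other motifs were TATAAA (7.01% of late falling windows against 7.1% of all), TGANTCA for AP-1 (3.82% against 5.17%), TGACGTCA for CRE (4.46% against 3.28%) and GAGGAAG for PU.1 (9.55% against 13.7%). Those left were TTGCNNAA for C/EBP (5.1% against 8.58%), CANCTG (38.2% against 43%), CACGTG (13.4% against 10.2%), AGATAAG for GATA (0.637% against 1.82%) and the ISRE (1.91% against 3.45%). Of 17 late falling genes in the S phase and G2/M lists 13 were kept. Genes without a window, genes of 1 chromosome and genes whose window is filed under another name were left out. Of the 13, 12 held at least 1 of the 3 motifs. The share of all windows with at least 1 of the 3 was not computed, and CCAAT alone was in 39.7%. The 5 of the 13 with the steepest slopes are given 5′ to 3′ on the strand of the gene, with matches to the motifs on either strand in capitals.
Kif11, chr19:37376132-37376431, plus strand: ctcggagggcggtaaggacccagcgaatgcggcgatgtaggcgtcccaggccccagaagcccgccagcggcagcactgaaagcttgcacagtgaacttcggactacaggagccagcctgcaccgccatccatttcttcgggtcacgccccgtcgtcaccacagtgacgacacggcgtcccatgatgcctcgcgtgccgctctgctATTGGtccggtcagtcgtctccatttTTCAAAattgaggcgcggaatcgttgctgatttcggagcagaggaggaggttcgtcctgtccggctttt
Ccnb1, chr13:100786437-100786736, minus strand: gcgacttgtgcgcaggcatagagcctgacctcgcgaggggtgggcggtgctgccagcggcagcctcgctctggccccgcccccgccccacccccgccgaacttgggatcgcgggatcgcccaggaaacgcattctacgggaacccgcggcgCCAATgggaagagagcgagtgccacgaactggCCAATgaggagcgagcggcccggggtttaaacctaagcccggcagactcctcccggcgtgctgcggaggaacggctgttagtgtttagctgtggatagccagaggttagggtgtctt
Rrm2, chr12:24708004-24708303, plus strand: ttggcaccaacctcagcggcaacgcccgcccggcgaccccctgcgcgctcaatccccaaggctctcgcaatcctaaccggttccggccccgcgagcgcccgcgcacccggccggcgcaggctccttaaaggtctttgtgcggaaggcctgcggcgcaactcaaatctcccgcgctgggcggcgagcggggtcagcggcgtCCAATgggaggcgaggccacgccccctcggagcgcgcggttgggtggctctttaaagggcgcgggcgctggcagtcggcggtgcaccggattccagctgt
Cdt1, chr8:122567765-122568064, plus strand: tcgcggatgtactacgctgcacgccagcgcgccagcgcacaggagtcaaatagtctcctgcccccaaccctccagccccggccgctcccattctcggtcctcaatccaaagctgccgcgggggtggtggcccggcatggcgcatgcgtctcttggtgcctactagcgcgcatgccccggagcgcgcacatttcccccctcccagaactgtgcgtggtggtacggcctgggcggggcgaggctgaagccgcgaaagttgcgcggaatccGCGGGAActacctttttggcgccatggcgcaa
Cdk1, chr10:69352863-69353162, minus strand: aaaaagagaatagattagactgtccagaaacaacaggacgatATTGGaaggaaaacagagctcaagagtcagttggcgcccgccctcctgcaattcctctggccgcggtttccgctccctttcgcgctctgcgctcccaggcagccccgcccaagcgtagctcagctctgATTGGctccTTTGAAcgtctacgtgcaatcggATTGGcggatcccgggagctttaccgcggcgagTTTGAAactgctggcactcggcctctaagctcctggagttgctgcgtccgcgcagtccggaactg
Kif11 and Cdk1 held both CCAAT and TTTGAA, Ccnb1 (cyclin B1) and Rrm2 (a ribonucleotide reductase subunit) held CCAAT without the others, and Cdt1 (a replication licensing factor) held the E2F letters alone. A match is a description of letters in the window and not of binding. The late step of these genes held in 8 of 15 leave-out fits for Kif11, 14 for Ccnb1, 10 for Rrm2, 13 for Cdt1 and 15 for Cdk1.

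Mitochondrially encoded genes were also late as deposited, with 9 of 13 higher and 0 lower, 7 of the 9 with the late step. mt-Co2, a subunit of cytochrome oxidase, stood at 6014, 6743 and 6219 in the controls, 6546, 6567, 8853 and 6453 after 1 defeat, 6773, 8363 and 5856 after 4 and 8622, 13059, 9667, 12161 and 10258 after 10. D5 lay below D17, and the other 10-defeat libraries lay above all libraries of the earlier groups. Its slope was 0.072 ± 0.014 (SE) log2 units per defeat (adjusted p = 8.6e-04), but -0.0047 after quantile normalization, under which 0 of the 13 rose and 1 fell. The late step of mt-Co2 held in 9 of 15 leave-out fits. Cytoplasmic ribosomal protein genes also changed side with scaling, with 11 of 31 higher and 0 lower as deposited and 2 higher and 16 lower after quantile normalization. Rpl22, a ribosomal protein of the step after the first defeat (0.029 ± 0.011 (SE) log2 units per defeat (adjusted p = 0.037)), had a slope of -0.012 under that scaling and lost its call in 7 of 15 leave-out fits, with adjusted p of 0.058 to 0.097.

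Eosinophil and basophil genes fell, 11 of 16 with 0 higher, and their median difference was 0.15 log2 units after 1 defeat, -0.46 after 4 and -0.67 after 10. The count was 5 without D6 and 7 without D7. Alox15, a lipoxygenase of eosinophils and macrophages, stood at 33.3, 36.4 and 33.3 in the controls, 32.5, 34.3, 39.1 and 39.3 after 1 defeat, 29.9, 24.7 and 24.6 after 4 and 14.4, 6.501, 9.37, 27.6 and 21.3 after 10. All 4-defeat and 10-defeat libraries lay below the lowest control, and D9 was the highest of the 10-defeat libraries. Its slope was -0.13 ± 0.026 (SE) log2 units per defeat (adjusted p = 7.8e-04).

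Leukotrienes are made from arachidonic acid by 5-lipoxygenase and its partners. Of 13 genes of the leukotriene and lipoxygenase list 7 rose and 4 fell, where 20.1% and 27.4% of all genes did. In the scaling without haemoglobin 6 rose and 6 fell. Alox5ap, the membrane partner of 5-lipoxygenase, stood at 489.6, 475 and 433 in the controls, 383, 471, 729 and 505 after 1 defeat, 802, 1359 and 1071 after 4 and 1054, 1972, 1165, 1506 and 1258 after 10. All 4-defeat and 10-defeat libraries exceeded all others, and the slope was 0.15 ± 0.022 (SE) log2 units per defeat (adjusted p = 1.6e-04). Alox5, 5-lipoxygenase itself, had 0.073 ± 0.015 (SE) log2 units per defeat (adjusted p = 9.7e-04), and Lta4h, which makes leukotriene B4, 0.095 ± 0.020 (SE) log2 units per defeat (adjusted p = 0.0015). All 3 were early plateau with all libraries and a straight line without D12.

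Ggt1, a peptidase that converts leukotriene C4 to D4, stood at 2.31, 1.25 and 3.33 in the controls, 2.94, 2.01, 2.28 and 2.95 after 1 defeat, 13.6, 51.9 and 34.9 after 4 and 10.9, 49.9, 13.7, 21.4 and 14.3 after 10. Its 4-defeat and 10-defeat libraries all exceeded the rest, and D12, D6 and D14 were highest. The departure from the line at 4 defeats was 2.20 ± 0.43 (SE, adjusted p = 0.039). Dpep2, which converts leukotriene D4 to E4, stood at 1.67, 1.63 and 1.58 in the controls, 1.61, 1.43, 1.64 and 2.1004 after 1 defeat, 2.07, 2.01 and 2.53 after 4 and 5.31, 4.95, 3.83, 7.95 and 7.36 after 10. All 10-defeat libraries exceeded all others, and D11 and D12 lay within the 1-defeat range. Its step from 4 to 10 was 1.07 ± 0.17 (SE, adjusted p = 0.012). Ltc4s, leukotriene C4 synthase, was not called (-0.028 ± 0.015 (SE) log2 units per defeat (adjusted p = 0.14)), with values between 0.433 and 1.598 in all libraries, and Alox12, the platelet lipoxygenase, was not called either (-0.066 ± 0.037 (SE) log2 units per defeat (adjusted p = 0.16)).

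Of 22 receptors for lipid mediators 9 rose and 5 fell, where 20.1% and 27.4% of all genes did. In the scaling without haemoglobin 7 rose and 8 fell. As deposited 10 of the 14 were early plateau, against 1854 of the 5827 called genes. Ltb4r1, the leukotriene B4 receptor, was early plateau in 15 of 15 leave-out fits (0.082 ± 0.020 (SE) log2 units per defeat (adjusted p = 0.004)). Fpr1 and Fpr2, formyl peptide receptors of phagocytes of which the second also binds lipoxin, were straight lines with 0.097 ± 0.013 (SE) log2 units per defeat (adjusted p = 7.9e-05) and 0.12 ± 0.016 (SE) log2 units per defeat (adjusted p = 8.7e-05). Of 10 genes of prostanoid synthesis and breakdown 4 rose and 1 fell, and without single libraries 1 to 5 rose. With totals made equal 1 rose and 1 fell, and in the scaling without haemoglobin 1 rose and 4 fell. Ptgr1, which inactivates prostaglandins and leukotriene B4, rose with 0.090 ± 0.021 (SE) log2 units per defeat (adjusted p = 0.0025), and Cbr1, a carbonyl reductase, fell with -0.095 ± 0.015 (SE) log2 units per defeat (adjusted p = 2.1e-04). Ptgs1, cyclooxygenase 1, was not called (0.023 ± 0.015 (SE) log2 units per defeat (adjusted p = 0.22)). Hpgds, a prostaglandin D synthase, was not called over the trend (adjusted p = 0.068) and was called among the 4 groups (adjusted p = 0.0051), with values of 2.84, 3.56 and 3.11 in the controls, 1.901, 1.87, 1.66 and 1.65 after 1 defeat, 1.83, 0.598 and 0.995 after 4 and 1.399, 1.02, 1.11, 2.04 and 1.66 after 10. Each stressed library lay below the lowest control.

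Of 23 genes of fatty acid desaturation and phospholipid remodelling 8 rose and 10 fell, where 20.1% and 27.4% of all genes did. In the scaling without haemoglobin 2 rose and 15 fell. Lpcat1 and Lpcat3, which put acyl chains back on lysophospholipids, fell along straight lines with -0.086 ± 0.012 (SE) log2 units per defeat (adjusted p = 1.4e-04) and -0.075 ± 0.010 (SE) log2 units per defeat (adjusted p = 1.1e-04). Of 15 cholesterol synthesis genes 6 rose and 0 fell, and in the scaling without haemoglobin 2 rose and 2 fell.

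Genes of acute stress signalling were mixed. Of 16 immediate early genes 8 rose and 2 fell. Junb, an AP-1 subunit, stood at 20.3, 18.9 and 15.7 in the controls, 21.2, 39.2, 20.7 and 23.2 after 1 defeat, 34.5, 46.1 and 35.9 after 4 and 40.5, 67.8, 59.6, 41.9 and 86.1 after 10. All 4-defeat and 10-defeat libraries lay above the controls, and among the 1-defeat libraries D16 reached the 4-defeat range. Its slope was 0.14 ± 0.022 (SE) log2 units per defeat (adjusted p = 2.0e-04), and that of Fosl2, another AP-1 subunit, was 0.087 ± 0.010 (SE) log2 units per defeat (adjusted p = 4.8e-05). Dusp1, a phosphatase of stress kinases, missed the threshold (0.075 ± 0.030 (SE) log2 units per defeat (adjusted p = 0.053)).

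Of 17 genes of the glucocorticoid response 5 rose and 4 fell, where 20.1% and 27.4% of all genes did. Fkbp5, a receptor cochaperone that glucocorticoids induce, stood at 47.9, 30.3 and 37.03 in the controls, 24.2, 35.5, 28.9 and 29.8 after 1 defeat, 29.9, 27.6 and 30.5 after 4 and 34.3, 48.9, 19.7, 37.8 and 26.01 after 10, with overlapping groups and no call (-0.0056 ± 0.020 (SE) log2 units per defeat (adjusted p = 0.83)). Tsc22d3, another induced gene, stood at 86.6, 81.9 and 81.1 in the controls, 103, 112, 72.3 and 94.9 after 1 defeat, 53.4, 67.1 and 42.2 after 4 and 111, 60.8, 69.3, 96.8 and 92.9 after 10. Its 4-defeat libraries were lower than all controls and its 10-defeat libraries overlapped them, and the trend was not called (adjusted p = 0.87). Mt1, a metallothionein, rose with 0.12 ± 0.021 (SE) log2 units per defeat (adjusted p = 6.5e-04).

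The hour of sampling, with which clock genes vary, is not given. Of 14 clock genes 6 fell and 1 rose, and after quantile normalization 4 fell and 3 rose. Arntl, a core activator of the clock, stood at 7.56, 10.3 and 8.41 in the controls, 9.04, 10.5, 7.85 and 8.02 after 1 defeat, 5.72, 2.24 and 2.84 after 4 and 2.54, 1.57, 3.898, 3.27 and 3.596 after 10. All 4-defeat and 10-defeat libraries lay below the lowest control. Its slope was -0.14 ± 0.025 (SE) log2 units per defeat (adjusted p = 5.4e-04), that of Nr1d1, a repressor of Arntl, -0.054 ± 0.011 (SE) log2 units per defeat (adjusted p = 0.0011), and that of Per1, which glucocorticoids also induce, -0.10 ± 0.034 (SE) log2 units per defeat (adjusted p = 0.022). Without D6 or D7 the adjusted p of Per1 was 0.061 or 0.052. The part of the hour of sampling in these values was not tested.

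Of 19 genes of interleukin 1 and inflammation 11 rose and 1 fell. Il1b, the cytokine interleukin 1 beta, stood at 14.4, 13.1 and 16.2 in the controls, 22.3, 25.2, 24.5 and 24.3 after 1 defeat, 29.4, 31.3 and 14.5 after 4 and 55.3, 15.8, 66.96, 34.9 and 146 after 10. D10 was highest, and D6 of the same group lay within the control range. Its slope was 0.14 ± 0.041 (SE) log2 units per defeat (adjusted p = 0.0099). Osm, oncostatin M, rose with 0.17 ± 0.022 (SE) log2 units per defeat (adjusted p = 6.8e-05), and Socs3, a feedback inhibitor of cytokine signalling, with 0.18 ± 0.025 (SE) log2 units per defeat (adjusted p = 1.2e-04). Saa3, an acute-phase protein, had 0.27 ± 0.089 (SE) log2 units per defeat (adjusted p = 0.021), but the control C4 stood at 41.1 against 0.824 and 1.03 in the other controls, and without D6 or D9 its adjusted p was 0.067 or 0.058.

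Of 16 tested natural killer genes 2 rose (Gzmb and Nkg7) and 0 fell over the trend, but without the 10-defeat group 14 fell and 1 rose. In the scaling without haemoglobin 0 rose and 8 fell. The median difference from controls was -0.24 log2 units after 1 defeat, -1.07 after 4 and -0.59 after 10. The list level overlapped between the last 2 groups, with -1.36 to -0.45 after 4 defeats and -1.61 to -0.053 after 10, D6 being lowest. Klrd1, a killer cell receptor chain, stood at 16.6, 14.1 and 12.9 in the controls, 10.1, 9.97, 5.495 and 10.4 after 1 defeat, 6.88, 4.84 and 3.3003 after 4 and 5.06, 3.62, 7.65, 7.79 and 9.39 after 10. All stressed libraries lay below the lowest control, the 4-defeat and 10-defeat groups overlapped, and the trend was not called (adjusted p = 0.06). Gzmb, the granule protease granzyme B, was late (0.066 ± 0.020 (SE) log2 units per defeat (adjusted p = 0.014)). It stood at 2.01, 1.08 and 1.60 in the controls, 0.647, 0.977, 1.48 and 1.26 after 1 defeat, 1.05, 0.828 and 0.793 after 4 and 1.48, 2.33, 3.46, 2.64 and 2.81 after 10. The 10-defeat libraries overlapped the controls, with a difference of 0.46 ± 0.19 (SE, adjusted p = 0.059) log2 units. Its mean at 4 defeats lay below the control mean. Nkg7, which primary granule cells also express, followed the primary granule genes instead and lost its call in 6 of 15 leave-out fits, with adjusted p of 0.052 to 0.11.

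Of 18 tissue macrophage genes 3 were lower and 1 higher over the trend, with 14 lower without the 10-defeat group, 13 without D12, 5 without D9 or D10 and 1 without D6. In the scaling without haemoglobin 16 were lower and 1 higher. Of the 580 genes that differed among the 4 groups without a called trend, 540 were farther from controls at 4 defeats than at 10. Genes chosen for a difference without a trend are more often extreme at 4 defeats, and the share over all genes was not computed. No conclusion on a transient course is therefore drawn from this count. The test among groups called 4972 genes (40.5%), of which 4392 also had a called trend.

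Stromal and vascular genes fell in part. Of 10 endothelial genes 8 fell and 0 rose, among them Pecam1, an adhesion molecule of endothelium and platelets, with -0.084 ± 0.012 (SE) log2 units per defeat (adjusted p = 1.1e-04). The endothelial count was 5 without C1, C4, D7 or D10 and after median-ratio rescaling, and 4 after quantile normalization. Of 14 genes of stroma and bone 6 fell and 1 rose. Cxcl12, which retains blood-forming cells in the marrow, stood at 102, 63.5 and 94.6 in the controls, 80.6, 71.96, 45.9 and 60.2 after 1 defeat, 56.97, 10.5 and 67.4 after 4 and 29.2, 16.2, 26.96, 36.4 and 31.2 after 10. The 10-defeat libraries all lay below the lowest control, and the 4-defeat libraries were split, with D12 lowest of all 15. Its slope was -0.15 ± 0.039 (SE) log2 units per defeat (adjusted p = 0.0075). Adipoq, a hormone of fat cells, fell with -0.16 ± 0.029 (SE) log2 units per defeat (adjusted p = 7.1e-04), and Acp5, the osteoclast phosphatase, with -0.18 ± 0.025 (SE) log2 units per defeat (adjusted p = 1.3e-04). These genes share the flushing of the femur as a source, and the part of how much stroma was collected was not tested. Of 22 platelet genes 7 fell, close to the 27.4% that fell over all genes, and 2 to 11 fell with single libraries left out. Pf4, platelet factor 4, was not called (-0.041 ± 0.040 (SE) log2 units per defeat (adjusted p = 0.42)). Of 12 plasma cell genes 4 fell and 2 rose, and of 13 heat shock genes 2 rose and 2 fell, where 20.1% of all genes rose and 27.4% fell. Of 14 genes of the integrated stress response 6 rose and 0 fell. In this last list 3 rose without D10, and in the scaling without haemoglobin 2 rose and 3 fell.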

How the data were processed

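RNA was extracted from flushed marrow with a column kit and polyadenylated RNA was made into stranded libraries, per the labels' protocols. The submitters' processing notes name kallisto 0.46.1, sleuth and GRCm38 without roles. The authors deposited a scaled abundance for each gene, here called a signal, with totals of 824187 to 1073108 in the 15 libraries. Its exact definition and scaling are not stated in the notes. No table of read counts was used, so the fit planned for counts was not run. Gene names and coordinates came from GENCODE M21 (35629 of 35885 identifiers, 99.3%).

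The 12270 genes reaching a value of 1 in 3 libraries were fitted on log2(value + 1) with limma (version 3.58.1, R 4.3.3), using a variance prior that was robust and followed a trend in mean level. Adjustment of p-values followed Benjamini and Hochberg across these genes. The pseudocount of 1 understates the change of low genes. A second fit over the 4 groups gave the steps, the departures from the line and the test among groups. The scripts were tested on simulated data with known slopes. Depth was estimated from the spacing of low values in 9754 single-transcript genes with an assumed fragment of 200 bp, where 62.5% to 73.0% of low values lay within 0.1 of a whole read. No library pair was identical (correlations of 0.906 to 0.988). The labels call the libraries biological replicates and do not say how animals map to them, so p-values measure the spread between these libraries.

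The members and gene lists were chosen with earlier results of these data known. Named genes were the 4 called genes with the steepest slope in each shape and direction, with a group mean of at least 2 and no overlap between controls and 10 defeats, the 4 of each sign with the smallest p for departure at 4 defeats, and members of the lists. Predicted gene models, pseudogenes and immunoglobulin and T cell receptor segments were left out. The Ms4a and stefin A clusters were chosen for description after their values were seen. Alternatives covered scaling, filter, pseudocount, variance model, coding of defeats, shape rule, and leaving out libraries or groups.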

Additional observations from a re-analysis of the deposited data

Results flagged for a closer look

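Single libraries stood apart from the rest of their group, by Dixon's 95% critical value, in 29 of 246 groups of 4 or 5 libraries. The groups covered the 122 named genes and the haemoglobin share, on values without logarithm. Chance gives about 1 in 20 for a single group of normally distributed values. The same libraries recur across genes that vary together, so this rate is no expectation for the 246 groups. D6 of the 10-defeat group accounted for 13 of the 29, and D17 of the 1-defeat group for 7. D6 had the lowest haemoglobin share of all libraries (11.1%), and D17 the lowest of its group (36.9%).

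D6 was above the other 10-defeat libraries for the granulocyte genes flagged here. This did not hold for the mature neutrophil list, whose level was 1.29 in D6 and 1.33 in D10. D6 stood at 75842 for S100a8 against 42396 to 50079, at 11275 for Ltf against 5603 to 7152, at 1915 for Prtn3 against 843 to 1014, at 1552 for Elane against 621 to 865, and at 341 for Ms4a3 against 126 to 179.6. Nkg7 stood at 148 against 65.1 to 86.8, Upp1 at 55.8 against 16.2 to 27.4, and Prok2 at 73.3 against 7.64 to 24.4. For Ifitm1 the value was 957 against 262 to 406, for Mt1 151 against 76.7 to 97.95, for Lta4h 626 against 335 to 394, and for Ggt1 49.9 against 10.9 to 21.4. Sox4 was lower in D6, at 1.28 against 3.25 to 4.03.

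D17 differed in the same directions from the other 1-defeat libraries. It stood at 43827 for S100a8 against 19058 to 23153, at 136 for Ms4a3 against 82.7 to 88.9, at 126 for Cstdc4 against 65.1 to 74.6, at 281 for Lta4h against 200.2 to 209, and at 8853 for mt-Co2 against 6453 to 6567. Srpk3 was lower, at 1.97 against 13.95 to 15.3, as was Klrd1, at 5.495 against 9.97 to 10.4.

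D16, D10, D5, D9 and D18 stood apart for 1 to 3 genes each, and D7 and D15 for 0. D16 stood at 39.2 for Junb against 20.7 to 23.2, at 24.3 for Gins2 against 21.4 to 21.6, and at 14.1 for Ms4a6b against 17.9 to 18.5. D10 stood at 3.63 for Rab3a against 1.81 to 2.29 and at 30.6 for Fosl2 against 25.3 to 26.4. D5 stood at 1.36 for Ltc4s against 0.433 to 0.662 and at 61.9 for Hk1 against 45.04 to 48.03. D9 stood at 220.0 for Ms4a6c against 139.8 to 159, and D18 at 202 for Rrm2 against 230.5 to 235.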

How the results depend on the processing

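The trend count stayed within 1.5 times its value in every alternative except without the 10-defeat group (2712 genes: 969 higher, 1743 lower) and without the controls (3389, of which 1719 lower), where fewer samples were fitted; leaving out a library gave 4765 (without D6) to 6443 (without D17). With totals equal apart from haemoglobin 736 genes rose and 7590 fell, and 7601 differed among groups; library weights gave 7733 among groups. No paired analysis was possible because the 4 marrow groups share no replicate numbers.

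Steps and shapes were the least stable results. The departure at 4 defeats counted 37 genes after median-ratio rescaling, 0 with equal totals, 17 with no filter, 2928 with library weights, 447 without D17, D12 and D6 together, and 0 to 887 with single libraries left out. The departure at 1 defeat counted 1, 1 and 1 with equal totals, with totals equal apart from haemoglobin and with library weights, 6 with no filter, 1 without the 3 libraries, and 0 to 2 with single libraries out. The step from 0 to 1 counted 0 after quantile normalization, median-ratio rescaling, a filter of 5, a pseudocount of 0.1 and a fit of the 2 groups alone, 7 with no filter, and 0 to 2 with single libraries out. The step from 1 to 4 counted 274 with no filter, 3604 with library weights, 18 in a fit of the 2 groups, and 9 to 2063 with single libraries out. The step from 4 to 10 counted 27 with equal totals, 3 apart from haemoglobin, 54 with no filter, 1931 with library weights, 1360 without the 3 libraries, 5 in a fit of the 2 groups, and 9 to 869 with single libraries out.

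The straight line held 2645 genes with totals equal apart from haemoglobin, 2629 by the share at 4 defeats, 2612 with no margin, and 920 to 1906 with single libraries out. The early plateau held 1034 to 2691 with single libraries out. The late step held 283 with equal totals, 313 apart from haemoglobin, 975 without the 3 libraries, 768 by the share at 4 defeats, 773 with no margin, and 341 to 930 with single libraries out. The step after the first defeat held 37 after quantile normalization, 129 apart from haemoglobin, 28 with a filter of 5, 35 with a pseudocount of 0.1, 260 with library weights, 37 without the 3 libraries, 97 with no margin, 134 in the pool of the test among groups, and 9 to 141 with single libraries out. The cause of these differences was not tested beyond which library was left out.

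Slopes of named genes that changed sign were as follows, in log2 units per defeat. After quantile normalization they were -0.012 for Rpl22, -0.0047 for mt-Co2, 0.00021 for Ltc4s and 0.00042 for Ptprj. With totals equal apart from haemoglobin they were -0.0023 for Babam2, -0.016 for Rpl22 and -0.021 for Ptgs1. After median-ratio rescaling they were 0.0052 for Fkbp5, 0.0061 for Tsc22d3 and 0.0064 for Ptprj. Without the 10-defeat group they were 0.026 for Mcm5, 0.041 for Cdk1, 0.0055 for Ccnb1, -0.029 for Ms4a6b and -0.089 for Gzmb, and without the controls 0.014 for Fkbp5 and 0.016 for Ptprj. Without the 3 libraries Tsc22d3 had 0.0018. With single libraries out, Fkbp5 ranged from -0.022 to 0.011, Tsc22d3 from -0.018 to 0.0042 and Ptprj from -0.0071 to 0.0020.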
